A study of Mus musculus with 24 samples.

Results

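The genes followed here in mouse subcutaneous fat are 10 genes of the skeletal muscle triad: the junctophilins Jph1 and Jph2, the calcium channel subunits Cacna1s and Cacng1 with their partner Stac3, and the junctional proteins Trdn, Asph, Hrc, Srl and Jsrp1. They were taken by symbol as named genes of excitation-contraction coupling, and each of the 10 was found in both deposited count tables, which share 38013 genes. The libraries are poly(A) RNA of the whole inguinal fat pad of C57BL/6J mice, from which the lymph node was removed per the labels. All mice carry a transgene for γ1, a regulatory subunit of the energy-sensing kinase AMPK, so that the controls are transgenic too. The transgene encodes wild-type γ1 in WT-Tg and the gain-of-function form D316A in D316A-Tg. Mice on chow were 16 weeks old and mice on a 45% high-fat diet (HFD) were 24 weeks old, with 6 libraries for each genotype on each diet and 24 in all. The sources used here do not give the promoter of the transgene, the cells that express it or whether each library is a separate animal, so p-values measure the spread between libraries, which may be technical in part. Gene-level counts do not show the D316A change and so do not check the genotype labels.

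In a skeletal muscle fibre, the triad is the place where a transverse tubule, an infolding of the surface membrane, meets the sarcoplasmic reticulum, the internal calcium store. Depolarisation of the tubule moves the voltage sensor of the L-type calcium channel, whose pore-forming subunit in skeletal muscle is the product of Cacna1s, and this opens the ryanodine receptor Ryr1 in the facing store membrane. Junctophilins tether the membranes to each other, triadin and junctin bind the release channel to calcium-buffering proteins of the store, and the pump Atp2a1 refills it. These genes are best known from muscle and are not markers of fat cells.

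Promoter sequence was at hand for 3 of the 10 genes, Cacna1s, Jph2 and Hrc, and is shown because those genes moved together with the muscle content of the libraries. Each sequence is the 250 bases before a RefSeq start on GRCm38.p6, written 5′ to 3′ on the strand of the gene. The capitals mark the letters CAGCTG, an E-box of the kind that myogenic factors bind. The windows are chr1:136052561-136052810 on the plus strand for Cacna1s, chr2:163397994-163398243 on the minus strand for Jph2 and chr7:45335019-45335268 on the plus strand for Hrc.
Cacna1s: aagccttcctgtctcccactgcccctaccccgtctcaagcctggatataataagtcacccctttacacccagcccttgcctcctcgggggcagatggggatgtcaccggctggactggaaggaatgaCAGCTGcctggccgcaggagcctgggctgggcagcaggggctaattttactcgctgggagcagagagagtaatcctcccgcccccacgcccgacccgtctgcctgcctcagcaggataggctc
Jph2: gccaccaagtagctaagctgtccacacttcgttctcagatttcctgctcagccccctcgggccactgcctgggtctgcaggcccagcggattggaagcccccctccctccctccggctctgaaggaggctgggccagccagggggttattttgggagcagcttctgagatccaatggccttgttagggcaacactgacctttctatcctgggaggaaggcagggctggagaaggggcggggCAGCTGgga
Hrc: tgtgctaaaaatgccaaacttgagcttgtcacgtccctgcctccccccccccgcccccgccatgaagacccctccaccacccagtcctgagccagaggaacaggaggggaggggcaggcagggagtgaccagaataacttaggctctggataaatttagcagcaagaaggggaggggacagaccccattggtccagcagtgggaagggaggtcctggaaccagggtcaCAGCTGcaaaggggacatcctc
CAGCTG reads the same on both strands and occurs 1 time in each window, with its first base at position -123 in Cacna1s, -9 in Jph2 and -22 in Hrc, counted from -1 at the last base before the start. Of all 32851 RefSeq promoter windows of this length, 13% hold it, and 66.2% hold the looser CANNTG, which includes it. The CArG box and the MEF2 box were searched on both strands and were found in none of these windows, against 1.47% and 2.92% of all windows. Jph2 has another RefSeq start, not shown, with the window chr2:163397974-163398223, in which the same CAGCTG begins at -29. A match is a stretch of letters and not a measured binding site.

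Muscle content set the libraries apart before any comparison. Levels are given in CPM, counts scaled to a common library size. The muscle score of a library is the mean log2 CPM (prior count 2) of 32 contractile genes of skeletal muscle, such as Acta1, Ckm and Tnnc2, and holds none of the 10 genes. It ran from -0.01 to 5.45 in WT-Tg chow, from -0.45 to 3.28 in D316A-Tg chow, from -0.10 to 2.23 in WT-Tg HFD and from 2.26 to 6.65 in D316A-Tg HFD. The summed level of the 32 genes ran from 204 to 13315 CPM, 162 to 800 CPM, 211 to 461 CPM and 514 to 26827 CPM in the same order. It was above 4 in WT-Tg chow 4, 5 and 6 and in D316A-Tg HFD 7, 9 and 10. No contractile marker was at 0 in every library of a group. Of the 12 cardiac markers, Nppa, Nppb and Nkx2-5 were at 0 in all libraries and Myl7 in those of D316A-Tg chow, while the others were counted in each group. The 12 summed to 15.3 to 27.3 CPM in WT-Tg chow, 12.2 to 14.5 in D316A-Tg chow, 28.2 to 54.3 in WT-Tg HFD and 18.7 to 49.7 in D316A-Tg HFD. The 12 B lymphocyte markers summed to between 111 and 1977 CPM in WT-Tg chow, 71.3 and 1498 in D316A-Tg chow, 108 and 732 in WT-Tg HFD and 149 and 1169 in D316A-Tg HFD. Although the labels have the lymph node removed, the B lymphocyte score (mean log2 CPM of these markers) was 5.84 to 7.04 in WT-Tg chow 1 to 4 and D316A-Tg chow 8 and 11, against -0.79 to 0.41 in the other chow libraries. On HFD it was 4.41 to 6.38 in WT-Tg HFD 3 and D316A-Tg HFD 7, 8, 9 and 11, against -0.22 to 2.21 in the others. None of the 16 markers of mature adipocytes was at 0 in any library. Library totals ran from 13254536 to 22748132 counts, and 3 counts, taken as the floor below which a level is not read, equal 0.140 to 0.243 CPM. In whole tissue, fewer cells of a type and less RNA per cell cannot be told apart.

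The junctophilins differed from each other. Jph1 (ENSMUSG00000042686, chromosome 1, 16964560 to 17097889, minus strand, GRCm38) had a lowest, median and highest level of 2.49, 4.05 and 28.3 CPM in WT-Tg chow and of 2.11, 3.60 and 5.06 CPM in D316A-Tg chow. On HFD the corresponding levels were 14.2, 17.1 and 20.8 CPM in WT-Tg and 8.49, 15.8 and 41.3 CPM in D316A-Tg. Apart from WT-Tg chow 6, every chow library lay below every HFD library. Jph2 (ENSMUSG00000017817, chromosome 2, 163336242 to 163397993, minus strand) had 0.887, 7.21 and 68.9 CPM in WT-Tg chow, 0.425, 1.28 and 2.37 CPM in D316A-Tg chow, 1.03, 1.92 and 2.48 CPM in WT-Tg HFD and 2.21, 7.94 and 89.2 CPM in D316A-Tg HFD. The high Jph2 libraries were WT-Tg chow 4, 5 and 6 and D316A-Tg HFD 7 and 10, which are among those with a muscle score above 4.

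Genes of the voltage-sensing channel were low in most libraries. Cacna1s (ENSMUSG00000026407, chromosome 1, 136052750 to 136119822, plus strand) was at 1.16, 5.09 and 45.0 CPM in WT-Tg chow, 0.207, 0.906 and 3.22 CPM in D316A-Tg chow, 0.0552, 0.219 and 1.13 CPM in WT-Tg HFD and 0.916, 8.56 and 93.6 CPM in D316A-Tg HFD. Another gene on the opposite strand covers 20% of its exon length, and the use of strand in counting is not stated, so part of its count is uncertain. Cacng1, the γ subunit of the same channel (ENSMUSG00000020722, chromosome 11, 107703218 to 107716522, minus strand), had a median of 0.982 CPM in WT-Tg chow, 0.222 in D316A-Tg chow, 0.102 in WT-Tg HFD and 2.14 in D316A-Tg HFD, with highest libraries at 15.9, 0.633, 0.413 and 31.2 CPM. In WT-Tg HFD it was counted between 1 and 8 times a library. Stac3, an adaptor needed to place and couple the channel (ENSMUSG00000040287, chromosome 10, 127501686 to 127508823, plus strand), was at 1.77, 4.16 and 22.4 CPM in WT-Tg chow, 1.23, 2.08 and 2.22 CPM in D316A-Tg chow, 0.276, 0.842 and 1.39 CPM in WT-Tg HFD and 0.485, 3.04 and 31.0 CPM in D316A-Tg HFD. Every WT-Tg chow library lay above every WT-Tg HFD library for both Cacna1s and Stac3.

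Among the proteins of the store membrane, Trdn varied more between libraries than Asph relative to its level. Trdn, which encodes triadin (ENSMUSG00000019787, chromosome 10, 33080554 to 33476709, plus strand), was at 0, 6.50 and 76.5 CPM in WT-Tg chow, 0, 0.717 and 4.43 CPM in D316A-Tg chow, 0.347, 1.34 and 4.28 CPM in WT-Tg HFD and 5.28, 18.5 and 168 CPM in D316A-Tg HFD. It had no counts in WT-Tg chow 2 and 3 and in D316A-Tg chow 11, and its D316A-Tg HFD libraries all lay above its WT-Tg HFD libraries. Asph (ENSMUSG00000028207, chromosome 4, 9448069 to 9669344, minus strand) encodes aspartate β-hydroxylase as well as junctin and junctate, which gene-level counts do not separate, and other genes overlap 14.7% of its exon length on the opposite strand. It was at 61.5, 78.0 and 220 CPM in WT-Tg chow, 71.9, 196 and 271 CPM in D316A-Tg chow, 147, 162 and 213 CPM in WT-Tg HFD and 217, 264 and 433 CPM in D316A-Tg HFD. Its D316A-Tg HFD libraries, too, all lay above those of WT-Tg HFD.

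The remaining store proteins ranged from a gene counted a few times to a gene present in every library. Hrc, the histidine-rich calcium-binding protein of the store (ENSMUSG00000038239, chromosome 7, 45335290 to 45338974, plus strand), was at 0.0469, 3.70 and 50.7 CPM in WT-Tg chow, 0.0691, 0.663 and 2.85 CPM in D316A-Tg chow, 0.0467, 0.240 and 1.60 CPM in WT-Tg HFD and 0.862, 7.57 and 129 CPM in D316A-Tg HFD. Jsrp1, the junctional protein JP-45 that binds the channel and calsequestrin (ENSMUSG00000020216, chromosome 10, 80808496 to 80813498, minus strand), had a median of 1.63 CPM in WT-Tg chow, 0.110 in D316A-Tg chow, 0.255 in WT-Tg HFD and 2.57 in D316A-Tg HFD, with highest libraries at 17.2, 0.686, 0.980 and 28.7 CPM. Srl, the calcium-binding protein sarcalumenin (ENSMUSG00000022519, chromosome 16, 4480216 to 4541816, minus strand), was at 5.95, 11.4 and 96.2 CPM in WT-Tg chow, 5.35, 8.92 and 14 CPM in D316A-Tg chow, 16.2, 16.8 and 18.2 CPM in WT-Tg HFD and 15.8, 27.5 and 205 CPM in D316A-Tg HFD. The WT-Tg HFD libraries of Srl lay within 2 CPM of each other, the narrowest relative spread among the 10 genes in the 4 groups.

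**Figure D1:**
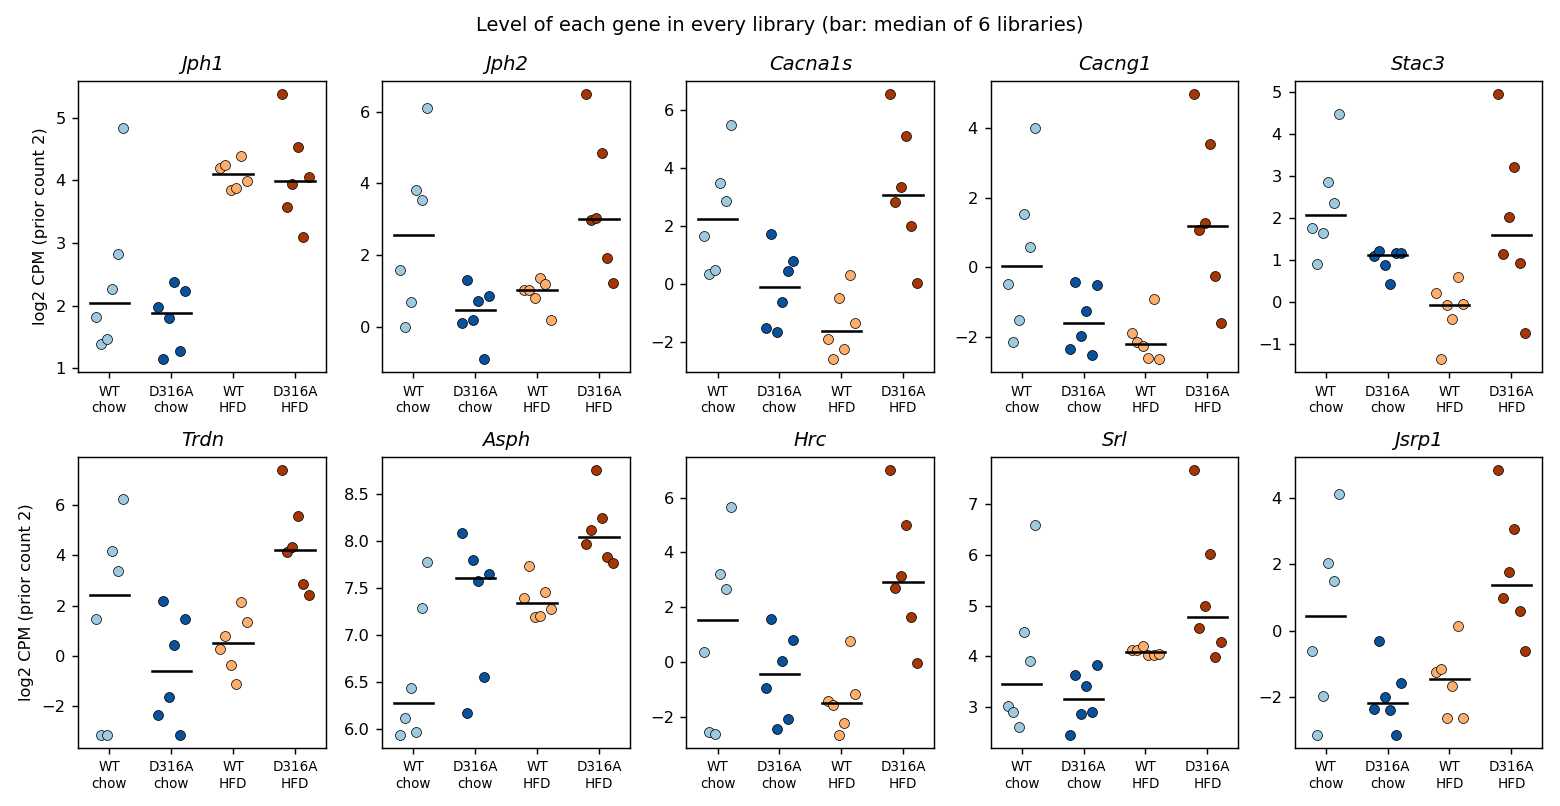
Level of each of the 10 genes in every library, as log2 CPM with a prior count of 2 on the vertical axis, by group on the horizontal axis; points are libraries and bars are medians of 6 libraries. WT-Tg chow 6 is the highest point of its group for all 10 genes and D316A-Tg HFD 7 for 9 of them, Asph being the exception.

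Levels can be compared between genes only per exon length, as CPM per kilobase of exon (RPKM). By median RPKM, Asph came first in all 4 groups, at 4.85 in WT-Tg chow, 12.2 in D316A-Tg chow, 10.1 in WT-Tg HFD and 16.4 in D316A-Tg HFD. Srl was next at 2.14, 1.68 and 5.17 RPKM in WT-Tg chow, D316A-Tg chow and D316A-Tg HFD, while in WT-Tg HFD Jph1 at 3.41 RPKM came before Srl at 3.15 RPKM, with ranges that overlap. In WT-Tg HFD the order fell into 3 steps, since every Asph library lay above every Jph1 library and every Srl library above every library of the next gene, Jph2 (median 0.452 RPKM, highest 0.583). Below Jph2 came Stac3 (0.331), Jsrp1 (0.191), Trdn (0.144), Hrc (0.0935), Cacng1 (0.0815) and Cacna1s (0.0334 RPKM), each overlapping its neighbour. In D316A-Tg chow, Asph lay above Srl and Srl above Stac3 (0.816 RPKM) without overlap, and all later neighbours overlapped. In WT-Tg chow and D316A-Tg HFD the ranges of all neighbours in the order overlapped, with medians from 0.695 (Trdn) to 4.85 RPKM (Asph) and from 1.19 (Stac3) to 16.4 RPKM (Asph).

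**Figure D2:**
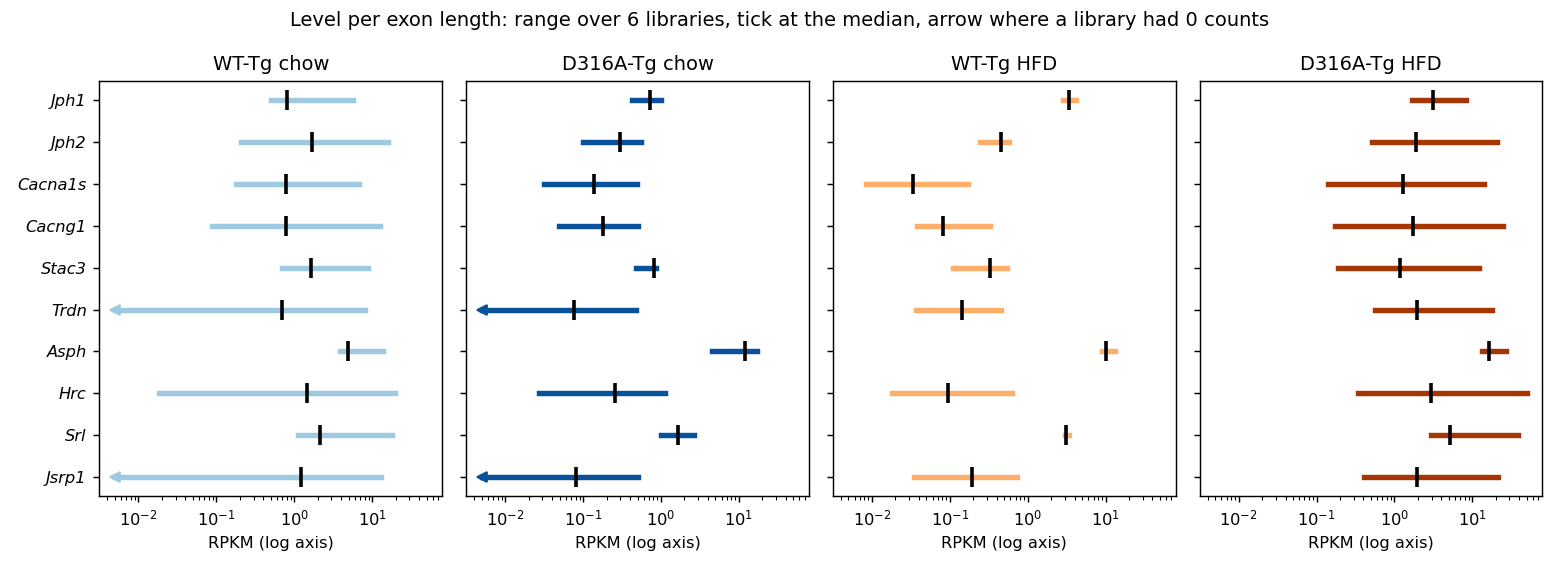
Range over 6 libraries (bar) and median (tick) of each gene in RPKM on a log axis, with 1 panel for each group; an arrow marks a group in which a library had 0 counts. Asph has the highest median in each panel, and in WT-Tg HFD the bars of Jph1, Srl and Asph stand clear of those of the other 7 genes.

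The chow comparison asked how the D316A form differs from the wild-type subunit in mice on chow. Jph2 and Stac3 were lower in D316A-Tg and 0 of the 10 genes were higher, where 8.54% of all genes tested were called, 3.25% lower and 5.3% higher. Mean Jph2 was 16.6 ± 26.2 CPM (SD, n = 6) in WT-Tg against 1.34 ± 0.678 CPM in D316A-Tg, a log2 fold change of -3.61 (SE 0.99, edgeR adjusted p = 0.0452). Mean Stac3 was 7.11 ± 7.71 against 1.91 ± 0.377 CPM, a log2 fold change of -1.91 (SE 0.53, edgeR adjusted p = 0.0481). The groups overlapped for both. Of the 10 genes 8 passed the filter on low counts, Cacng1 and Jsrp1 being left out of the test. Of the 6 others tested, Trdn (-3.58, SE 1.59), Hrc (-3.43, SE 1.41), Cacna1s (-3.21, SE 1.00), Srl (-1.45, SE 0.64) and Jph1 (-1.22, SE 0.57) had negative values and Asph a positive value of 0.62 (SE 0.37), with edgeR adjusted p-values from 0.0632 to 0.280.

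Both chow calls lay close to the threshold. Leaving out any of 10 of the 12 libraries ended the call of Jph2 and any of another set of 10 that of Stac3 (highest edgeR adjusted p = 0.111 and 0.117). Stac3 stayed between -1.83 and -2.11 in those 10 fits and Jph2 between -3.42 and -3.85 in 9 of its 10, while calls over all genes, 1303 with all libraries, ran from 140 to 3360 when single libraries were left out. Without WT-Tg chow 6, the log2 fold changes were -2.27 for Jph2 (edgeR adjusted p = 0.0608) and -1.17 for Stac3 (0.0482). Without the 3 WT-Tg libraries with a muscle score above 4 they were -0.47 (SE 0.54) and -0.58 (SE 0.30). In that fit edgeR called 0 of the 10 and 25 of all genes, with 1 and 5334 at an unadjusted p below 0.05. With the muscle score as a covariate edgeR also called 0 of the 10, and 81 of all genes, with 2 and 3998 at an unadjusted p below 0.05. The log2 fold changes were then -1.06 for Jph2 (SE 0.46) and -0.89 for Stac3 (SE 0.42). DESeq2, run on all 12 libraries, called 4 lower, Cacna1s and Hrc besides these, and 2977 of all genes. Without the filter edgeR called 0 of the 10 and 524 of all genes, with 9 and 5205 at an unadjusted p below 0.05. Voom with sample quality weights called 10843 of all genes and 1 of the 10, Asph, higher at 1.36 (SE 0.20). Without D316A-Tg chow 8, Cacna1s was called as well (-3.89, edgeR adjusted p = 0.0289). Of 26 contractile genes tested on chow, 1 was called lower and 0 higher, with a median log2 fold change of -3.27 beside -0.07 for all genes. Whether the muscle content of single libraries gave the chow differences was not tested.

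On HFD the D316A comparison went the other way for most of the genes. Asph had a positive value on both diets. Of the 9 genes tested, Trdn, Jph2, Cacna1s, Stac3, Hrc, Jsrp1 and Asph were higher in D316A-Tg and 0 were lower, where 8.47% of all genes were called, 4.51% higher and 3.96% lower. Mean Trdn was 1.73 ± 1.45 CPM in WT-Tg against 44.2 ± 62.7 CPM in D316A-Tg (log2 fold change 4.64, SE 0.95, edgeR adjusted p = 0.0222). Its groups did not overlap, as for 1.76% of genes in this direction. Hrc and Cacna1s had the largest log2 fold changes, 6.10 (SE 1.30, edgeR adjusted p = 0.0235) and 5.95 (SE 1.15, 0.0199). Of the others called, Jsrp1 was at 4.48 (SE 1.04), Jph2 at 3.61 (SE 0.84) and Stac3 at 3.23 (SE 0.86), with edgeR adjusted p-values of 0.0278, 0.0278 and 0.0417. In WT-Tg HFD, Hrc, Cacna1s and Jsrp1 had only 1 to 31, 1 to 22 and 1 to 19 counts a library. They passed the filter mainly through D316A-Tg, where they were high, so a lower call was hardly open to them. Their fold changes rest on WT-Tg medians near the floor of 3 counts and are uncertain in size.

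Asph, Srl and Jph1 stood apart from these on HFD. Asph rose from 168 ± 24.9 to 285 ± 79.2 CPM, a log2 fold change of 0.75 (SE 0.17, edgeR adjusted p = 0.0247), and its groups did not overlap. Srl had a log2 fold change of 1.80 (SE 0.57, edgeR adjusted p = 0.0679), and without D316A-Tg HFD 12 it was called, at 1.97 (0.0257). Jph1 had one of 0.16 (SE 0.31, edgeR adjusted p = 0.736), at means of 17.1 ± 2.60 CPM in WT-Tg against 19.4 ± 11.8 CPM in D316A-Tg. Cacng1 did not pass the filter, and its means were 0.145 ± 0.137 CPM in WT-Tg against 8.01 ± 12.1 CPM in D316A-Tg.

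The lowest muscle score of D316A-Tg HFD, 2.26, was above the highest of WT-Tg HFD, 2.23, and 25 of 26 tested contractile genes were called higher, with a median log2 fold change of 5.23. Without the 3 D316A-Tg libraries with a score above 4, edgeR called 0 of the 10 genes and 0 genes in all, with 7 of the 10 and 3188 of all genes at an unadjusted p below 0.05. The log2 fold changes were then 2.51 for Trdn, 3.34 for Cacna1s, 3.01 for Hrc, 1.98 for Jsrp1, 1.29 for Jph2, 0.79 for Stac3 and 0.52 for Asph (edgeR adjusted p-values from 0.152 to 0.379). With the muscle score as a covariate, Trdn was at -0.05 (SE 0.60) and Hrc at -0.58 (SE 0.61), and edgeR called 0 of the 10 and 0 genes in all, with 2 of the 10 and 713 of all genes at an unadjusted p below 0.05. Since the scores of the genotypes do not overlap on HFD, that fit can hardly separate genotype from score. With the B lymphocyte score as a covariate edgeR called 0 of the 10 and 25 genes in all. At an unadjusted p below 0.05 there were 8 of the 10 and 2220 of all genes. The log2 fold changes were then 4.91 for Trdn, 5.78 for Cacna1s, 6.2 for Hrc and 0.88 for Asph, about as large as without the covariate. DESeq2 without covariates called 8, and 2802 of all genes. Leaving out single libraries gave 2 to 9 calls, beside 326 to 3919 of all genes. Without WT-Tg HFD 1, 4 and 6 the calls were 4, 2 and 2, beside 458, 337 and 326 of all genes. The calls of Trdn and Cacna1s held when any single library was left out, while Stac3 lost its call without any of 11, Jph2 without any of 5, Jsrp1 without any of 4, and Hrc and Asph without any of 3 (highest edgeR adjusted p = 0.0846, 0.0640, 0.0622, 0.0542 and 0.0565). In those fits Jph2 lay between 3.48 and 3.70, Jsrp1 between 4.24 and 4.49, Hrc between 5.89 and 6.03, Asph between 0.71 and 0.77 and Stac3 between 3.05 and 3.45, except for 2.05 without D316A-Tg HFD 7.

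**Figure D3:**
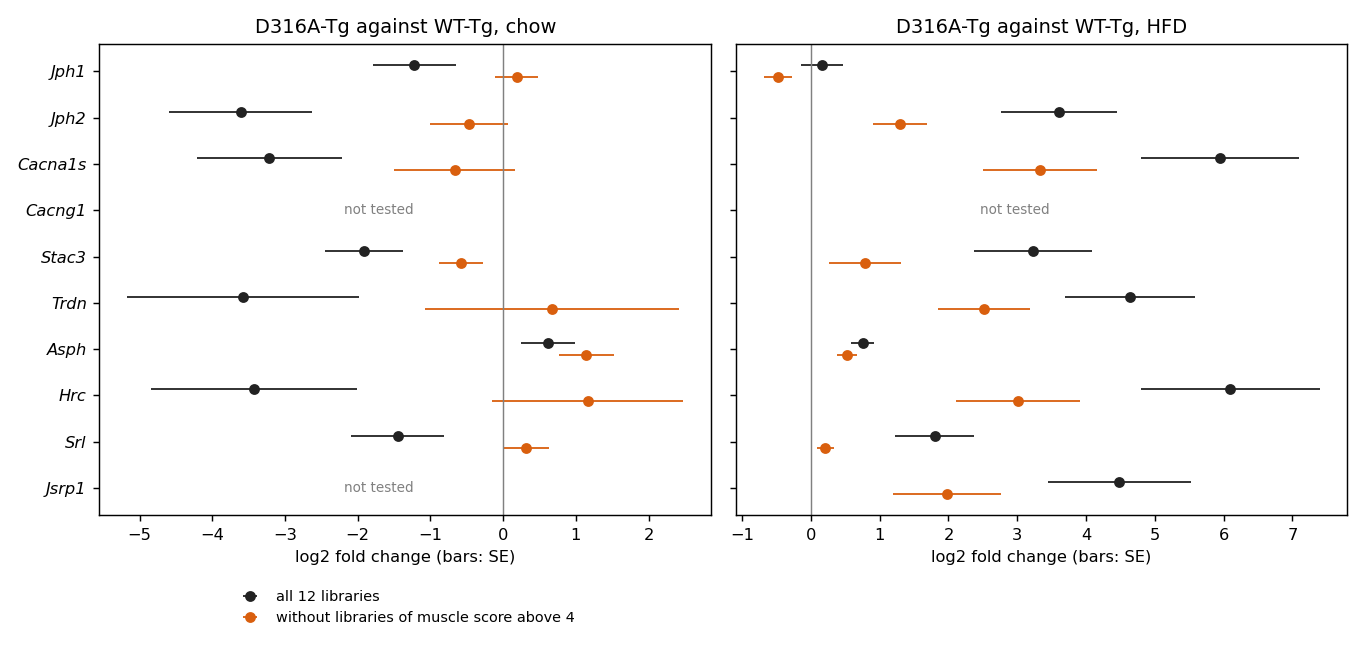
Log2 fold change of D316A-Tg against WT-Tg on chow (left) and HFD (right) with its standard error, in all 12 libraries of a diet (black) and without those with a muscle score above 4 (orange). On HFD the value of Trdn is 4.64 with all libraries and 2.51 without those, and on chow that of Jph2 is -3.61 and -0.47; Cacng1 on both diets and Jsrp1 on chow did not pass the filter.

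Whether the D316A effect differed by diet was tested in a model of all 24 libraries, in which all 10 genes passed the filter. Of them 8 were called with a larger value on HFD than on chow and 0 in the other direction, where 12.9% of all genes were called, 6.08% with a larger and 6.86% with a smaller value on HFD. The differences in log2 fold change were 9.52 for Hrc (SE 1.99), 9.17 for Cacng1 (SE 1.71), 9.16 for Cacna1s (SE 1.58), 8.69 for Jsrp1 (SE 1.77), 8.22 for Trdn (SE 1.89), 7.22 for Jph2 (SE 1.34), 5.15 for Stac3 (SE 1.04) and 3.26 for Srl (SE 0.89). Their edgeR adjusted p-values lay between 0.00277 and 0.0213. Cacng1 had 1 to 8 counts a library in WT-Tg HFD and 1 to 12 in D316A-Tg chow, and Jsrp1 had 0 to 13 in D316A-Tg chow. Hrc and Cacna1s had at most 31 and 22 counts in WT-Tg HFD. The sizes of the largest differences are therefore uncertain. Jph1 had a difference of 1.39 (SE 0.66, edgeR adjusted p = 0.150) and Asph of 0.15 (SE 0.42, 0.833). The median of the 10 was 7.72, beside 0.07 for all genes. Each of the 8 calls held when any single library was left out, and voom with sample quality weights called 5, and 10372 of all genes. Without the 6 libraries with a muscle score above 4, 1 of the 10 was called, Cacna1s at 3.97 (SE 1.20, edgeR adjusted p = 0.0368), with 2948 of all genes. With the muscle score as a covariate edgeR called 0 of the 10 and 1 gene in all. At an unadjusted p below 0.05 there were 1 of the 10 and 3698 of all genes.

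Diet was then compared within each genotype. Mice on HFD were also older, and their libraries came from another table and another version of the base-call software, which cannot be told apart from diet. These contrasts share libraries with the comparisons above and bring no separate evidence. In WT-Tg, 7 of the 10 genes were lower on HFD and 0 higher, where 60.4% of all genes were called, 34.5% lower and 25.9% higher. Cacna1s was at -4.88 (SE 1.15) and Stac3 at -3.11 (SE 0.75) as log2 fold changes, both with groups that did not overlap, as for 15.4% of genes. Hrc was at -4.72 (SE 1.42), Cacng1 at -4.54 (SE 1.23), Jsrp1 at -3.68 (SE 1.20), Trdn at -3.37 (SE 1.29) and Jph2 at -3.16 (SE 0.93), with edgeR adjusted p-values from 0.00340 to 0.0289. Without WT-Tg chow 6, Trdn (-1.94), Jsrp1 (-2.31) and Jph2 (-1.82) lost their calls (edgeR adjusted p = 0.160, 0.0721 and 0.0506), and Hrc and Cacng1 were at -3.07 and -2.87. Trdn also lost its call without any of 4 HFD libraries, WT-Tg HFD 1, 2, 3 and 4, at -3.17 to -3.36. Voom with sample quality weights turned it to 2.27 and called 12605 of all genes and 4 of the 10, Cacna1s and Stac3 lower and Jph1 and Asph higher. Cacna1s and Stac3 were also called lower without the libraries with a muscle score above 4 (-2.30 and -1.75) and with the score as a covariate (-2.28 and -1.72). Trdn was called higher with that covariate, at 1.58 (SE 0.60, edgeR adjusted p = 0.0316).

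In D316A-Tg, 9 of the 10 were higher on HFD and 0 lower, where 37.2% of all genes were called, 17.9% higher and 19.3% lower. Trdn, Jph1 and Srl had groups that did not overlap, as for 7.83% of genes, with log2 fold changes of 4.84 (SE 1.38), 2.45 (SE 0.49) and 2.63 (SE 0.65). The other 6 lay between 2.03 for Stac3 (SE 0.72, edgeR adjusted p = 0.0288) and 5.01 for Jsrp1 (SE 1.30, 0.00395). Asph was not called (0.71, SE 0.30, edgeR adjusted p = 0.0649). Without D316A-Tg HFD 7, Stac3 was at 0.86 and not called (edgeR adjusted p = 0.284), and Srl was at 1.71 and called (0.0177). The Stac3 call also ended without any of D316A-Tg chow 7, 9, 10 and 12, at 1.89 to 2.02. Without the 3 D316A-Tg HFD libraries and the 3 WT-Tg chow libraries with a muscle score above 4, 3 of the 10 were called, Jph1, Jph2 (1.71, SE 0.47) and Srl, with 4911 of all genes. With the muscle score as a covariate edgeR called 0 of the 10 and 4154 of all genes, with 1 and 5772 at an unadjusted p below 0.05.

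Jph1 and Srl differed from the rest in the diet comparison of WT-Tg. Jph1 had a log2 fold change of 1.06 (SE 0.46, edgeR adjusted p = 0.0538) and Srl of -0.63 (SE 0.62, 0.390), and Asph was at 0.57 (0.103). Without WT-Tg chow 6, Jph1 was at 1.99 and Asph at 0.85, both called (edgeR adjusted p = 4.12e-05 and 0.0125), and Jph1 was called without D316A-Tg HFD 7 or 11 too. Asph was also called in D316A-Tg without WT-Tg chow 6 (0.71, edgeR adjusted p = 0.0372), a library that enters there only through the shared spread. Without the 6 libraries with a muscle score above 4, Jph1 was higher on HFD in both genotypes, by 2.50 (SE 0.29) in WT-Tg and 1.75 (SE 0.25) in D316A-Tg, with edgeR adjusted p-values of 3.57e-06 and 4.97e-05. Srl was then higher on HFD in both as well, by 1.17 (SE 0.25) and 1.00 (SE 0.23), with edgeR adjusted p-values of 0.00102 and 0.00355. With the muscle score as a covariate, Jph1 was at 2.13 in WT-Tg (edgeR adjusted p = 0.000113) and 1.06 in D316A-Tg (0.0696). Among libraries with a score below 1, Jph1 lay between 2.31 and 3.81 CPM in 5 chow libraries and between 14.2 and 18.8 CPM in 4 HFD libraries, and Srl between 5.35 and 7.37 CPM and between 16.2 and 18.2 CPM. In those same libraries Hrc lay between 0.0469 and 0.405 CPM on chow and 0.0467 and 0.329 CPM on HFD, at 1 to 5 and 1 to 7 counts a library. Those 4 HFD libraries are all WT-Tg, so this set does not compare genotypes on HFD.

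Most of the genes followed the contractile score across the 12 libraries of each diet. Hrc had a Pearson r of 0.96 on chow and 0.98 on HFD (Spearman rho 0.92 and 0.98), and Trdn of 0.98 on both (rho 0.94 and 0.98). For these 4 values of r the permutation p, two-sided, was 1e-05, the smallest that 100000 resamples can give, and 2.22e-05 adjusted over the 20 relations computed. Cacng1, Jsrp1, Cacna1s and Jph2 had r of 0.94, 0.94, 0.90 and 0.92 on chow and 0.95, 0.96, 0.96 and 0.90 on HFD, and rho between 0.82 and 0.95. Stac3 had 0.78 and 0.90 and Srl 0.87 and 0.81, with rho of 0.70 and 0.86 and of 0.94 and 0.69. After leaving out the 2 libraries with scores farthest from the median, r stayed at 0.81 or above for Trdn, Hrc, Cacng1, Jsrp1, Cacna1s and Jph2 on both diets, and was 0.54 and 0.81 for Stac3 and 0.88 and 0.71 for Srl. These libraries were WT-Tg chow 4 and 6 and D316A-Tg HFD 7 and 10. Score and gene come from the same library and share its depth and scaling. Libraries were permuted across both genotypes of a diet, so these p-values also take in the gap between genotypes.

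Within single groups of 6 libraries the relation held for some genes only. Hrc had r of 0.99 in WT-Tg chow, 0.89 in D316A-Tg chow, 0.95 in WT-Tg HFD and 0.96 in D316A-Tg HFD (exact permutation p, two-sided, of 0.00139, 0.025, 0.0125 and 0.00139). Trdn had r between 0.89 and 1.00 in the 4 groups. In WT-Tg HFD, where scores spanned the narrowest range, r was 0.00 for Jph2 and -0.31 for Srl (exact permutation p = 0.997 and 0.560). In D316A-Tg HFD the same genes had r of 0.93 and 0.89. Stac3 had r of 0.12 in D316A-Tg chow and 0.98 in D316A-Tg HFD. For Cacna1s, Stac3 and Jsrp1, r in WT-Tg HFD was 0.57, 0.53 and 0.74 (exact permutation p = 0.247, 0.279 and 0.101). For Cacng1 it was 0.88 there (exact permutation p = 0.025).

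Jph1 on both diets and Asph on chow had the lowest r with the score. Jph1 had r of 0.69 on chow (rho 0.53) and 0.39 on HFD (rho 0.31), with permutation p of 0.00574 and 0.210 and adjusted p of 0.00638 and 0.221 by permutation. Without the 2 farthest libraries r was 0.45 and -0.39, so the pooled r over 12 libraries depended on those. This does not carry over to WT-Tg HFD, which holds none of the libraries left out. WT-Tg chow and D316A-Tg HFD do hold them, and r within those groups was not computed without them. Within groups of 6, Jph1 had r of 0.84 in WT-Tg chow, -0.13 in D316A-Tg chow, 0.88 in WT-Tg HFD and 0.72 in D316A-Tg HFD (exact permutation p = 0.0167, 0.797, 0.0125 and 0.101). Asph had r of -0.06 on chow (rho -0.21) and 0.82 on HFD (rho 0.90), with permutation p of 0.850 and 0.00121 (adjusted 0.850 and 0.00142), and 0.90 on HFD without the 2 farthest. Within the HFD groups of 6, Asph had r of 0.44 in WT-Tg and 0.42 in D316A-Tg (exact permutation p = 0.372 and 0.407), so its pooled HFD value rests in part on the gap between the genotypes.

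**Figure D4:**
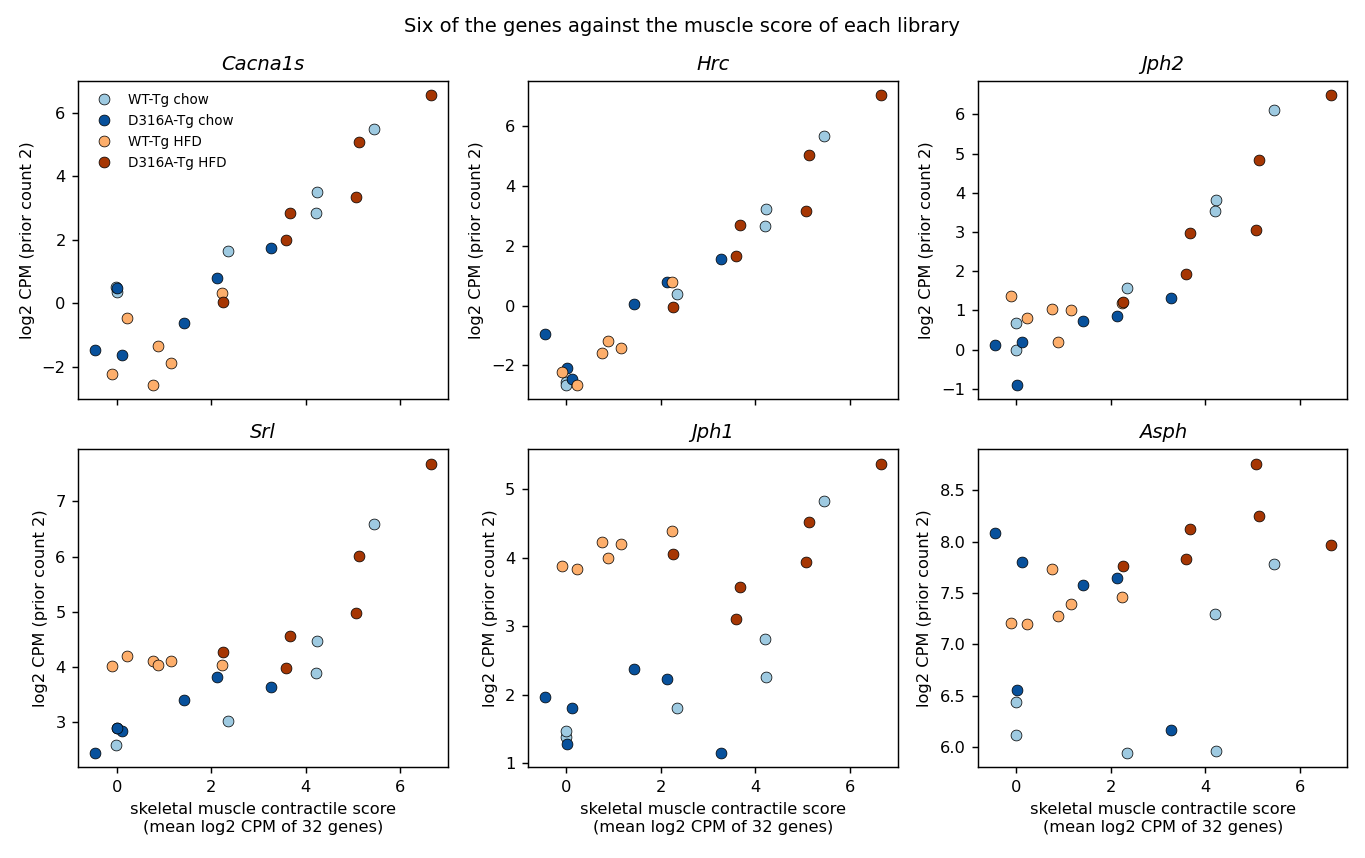
Level of 6 of the genes (log2 CPM, prior count 2) against the muscle score of the same library (mean log2 CPM of 32 contractile genes), with points coloured by group. Hrc is higher at higher scores on both diets (r = 0.96 and 0.98), though not from library to library at scores below 1, Jph1 and Srl lie higher on HFD than on chow at scores below 1, and Asph on chow shows no trend (r = -0.06).

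The genes most like each of the 10 were found by the lower of the Pearson r over the 12 chow and the 12 HFD libraries, among 12980 genes. Trdn was nearest to Tnnc2, the fast skeletal troponin C (lower r 0.99), then to the calcium pump Atp2a1 and to Myoz1, both at 0.98. Hrc was nearest to Acta1, skeletal α-actin (0.99), and Cacng1 to Pygm, muscle glycogen phosphorylase (0.99). Cacna1s had Myo18b (0.97), Jph2 had Hhatl (0.97), Jsrp1 had the kelch protein Klhl40 (0.97), Srl had Phka1, a muscle subunit of phosphorylase kinase (0.95), and Stac3 had Cacng6, another channel γ subunit (0.95). Jph1 was nearest to the sodium-calcium exchanger Slc8a3 (0.92), followed by Pkia (0.88) and the AMPK subunit Prkab2 (0.87). Asph was nearest to the ubiquitin ligase Peli2 (0.93), Irak1bp1 (0.93) and Erlin1 (0.92). Among themselves, Trdn, Jph2, Cacna1s, Cacng1, Stac3, Hrc and Jsrp1 had pairwise r of 0.76 to 0.98 on chow and 0.88 to 0.98 on HFD over 21 pairs. Asph had r of -0.24 to 0.11 with those 7 genes on chow and 0.57 to 0.76 on HFD, and Jph1 of 0.66 to 0.85 and 0.38 to 0.58. These are descriptions over 12 libraries a diet that share depth, scaling and group differences.

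Other genes of excitation-contraction coupling, 56 found of 57 listed, did not move as one. On HFD, 11 of 46 tested were higher in D316A-Tg and 4 lower, where 4.51% and 3.96% of all genes were called. The median log2 fold change was 0.32, beside 3.61 for the triad genes tested and 0.01 for all genes. The release channel Ryr1 rose by 5.05 (SE 1.05), the pump Atp2a1 by 7.04 (SE 1.43), the calcium buffer Casq1 by 3.21 (SE 0.89), Sypl2, which encodes mitsugumin 29, by 5.21 (SE 1.03) and Cmya5 by 4.02 (SE 0.83), all as log2 fold changes. Ryr2, the ryanodine receptor best known from heart and brain, was lower at -1.5 (SE 0.31, edgeR adjusted p = 0.0224), as were Dysf (-1.10), Stim2 (-0.64) and Tmem38b (-0.68). On chow, 4 of 46 were lower in D316A-Tg, Camk2g (-0.41), Speg (-1.35), Camk2b (-1.62) and Cacna1c (-1.29), and 1 higher, Mtm1 (0.44). Of all genes, 8.54% were called there, 3.25% lower and 5.3% higher, a total share not far from that of the list. Ryr1 was at -4.13 (SE 1.20, edgeR adjusted p = 0.0531), Casq1 at -3.39 (SE 1.13, 0.0765) and Atp2a1 at -4.45 (SE 1.78, 0.122) on chow. The interaction was called for 19 of 51 in the direction of a larger value on HFD and for 4 in the other, the latter being Tmem38b, Atp2a2, Itpr1 and Mtm1. Of all genes, 6.08% and 6.86% were called in these directions, so the share of the latter was near that of all genes.

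The diet contrasts of the same list separated the receptors Ryr1 and Ryr2 in WT-Tg, while both were higher on HFD in D316A-Tg. In WT-Tg, 25 of 51 were lower on HFD and 16 higher, where 34.5% and 25.9% of all genes were called. Ryr1 was at -4.40 (SE 1.16) and Ryr2 at 4.02 (SE 0.66, edgeR adjusted p = 2.3e-05). Ryr2 was at 1.11 ± 0.528 CPM in WT-Tg chow and 19.5 ± 2.67 CPM in WT-Tg HFD, with libraries from 0.237 to 1.53 CPM and from 16.8 to 23.6 CPM. Ryr1 was at 56.1 ± 102 and 2.65 ± 1.33 CPM in those groups. The pump Atp2a2 (0.87), the exchanger Slc8a1 (1.97), Stim2 (1.32), Mtm1 (1.01), Tmem38b (1.43) and Itpr1 (0.54) were among those higher on HFD in WT-Tg. In D316A-Tg, 25 were higher on HFD and 1, S100a1, lower, where 17.9% and 19.3% of all genes were called. Ryr1 was at 4.78 (SE 1.18) and Ryr2 at 2.85 (SE 0.63). Slc8a3, the exchanger whose pattern was most like that of Jph1, was higher on HFD in D316A-Tg by 2.88 (SE 0.69).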

How the data were processed

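The authors deposited whole-number read counts per gene, unnormalised, in a chow and an HFD table of 12 libraries each. STAR 2.4.1 and the mm10 build are named in the submitters' processing notes, beside bcl2fastq, FastQC and DESeq2. The sources used here do not give the gene annotation, the counting tool or the use of strand. Libraries were grouped by the labels, and totals of 13254536 to 22748132 counts make levels under 3 counts a library unreadable. The test was edgeR 4.0.16's quasi-likelihood F test (R 4.3.3, robust, TMM scaling, filterByExpr), with calls at an adjusted p below 0.05 (Benjamini-Hochberg over every gene that passed the filter), within each diet and, for interaction and diet contrasts, in a model of 24 libraries over shared genes. SE is the size of the log2 fold change divided by the square root of F. CPM uses TMM library sizes, RPKM the union exon length of GENCODE M21, and coordinates are 1-based. The tests were tested on simulated data, in which 82.7% (chow), 89.6% (HFD) and 73.2% (interaction) of genes changed by 2 on the log2 scale were recovered.

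The 10 genes and all lists were chosen with earlier results of these data known. Named genes were all 10, up to 6 per direction of the other coupling genes with the lowest adjusted p plus Ryr1, Casq1 and Atp2a1 (1 such gene is not reported here), and the 3 genes most like each of the 10 with a mean of at least 1 CPM, predicted genes left out. Of the lists, those of contractile, cardiac, adipocyte and B lymphocyte markers and of other coupling genes are used. Alternatives were RLE and upper-quartile scaling, DESeq2 1.42.0, no robust step, voom of limma 3.58.1 with sample quality weights, a filter of 1 count only or of a mean count of 50, muscle or B lymphocyte score as covariate, a replicate block, 1 fit of all 24 libraries, and leaving out each library; leaving out libraries with a muscle score above 4 was added after the scores were seen. Numbers in the titles are shared between diets (1 to 6 and 7 to 12), but the labels tie them to no shared animal or batch.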

Additional observations from a re-analysis of the deposited data

Results flagged for a closer look

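Across the 10 genes and 4 groups, 40 sets of 6 libraries were searched for a library far from the other 5, and 21 had one. The search used CPM and not log2 CPM, and its cutoff marks about 1 set in 20 only for normally distributed values. CPM here were skewed, as for Trdn in WT-Tg chow with a median of 6.50 and a highest level of 76.5. How many sets chance would mark is therefore not known. The sets also share libraries, so they do not count separately. WT-Tg chow 6 was far above its group for 9 genes: Trdn at 76.5 CPM, Jph1 at 28.3, Jph2 at 68.9, Cacna1s at 45.0, Cacng1 at 15.9, Stac3 at 22.4, Srl at 96.2, Hrc at 50.7 and Jsrp1 at 17.2 CPM. Its muscle score of 5.45 was the highest of the chow libraries. D316A-Tg HFD 7 was far above its group for 8 genes: Trdn at 168 CPM, Jph2 at 89.2, Cacna1s at 93.6, Cacng1 at 31.2, Stac3 at 31.0, Srl at 205, Hrc at 129 and Jsrp1 at 28.7 CPM. Its muscle score of 6.65 was the highest of all 24 libraries. WT-Tg HFD 5, the library with the highest score of its group, was far above it for Cacng1 at 0.413 CPM, Hrc at 1.60 CPM and Jsrp1 at 0.980 CPM, and D316A-Tg chow 8, likewise the highest of its group, for Jsrp1 at 0.686 CPM. Asph had no such library in any group. The part of muscle content in these levels was not tested.

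The effect of D316A differed between the diets for 8 genes in the edgeR test of that difference. The difference in log2 fold change, HFD minus chow, was 8.22 for Trdn, 7.22 for Jph2, 9.16 for Cacna1s, 9.17 for Cacng1, 5.15 for Stac3, 3.26 for Srl, 9.52 for Hrc and 8.69 for Jsrp1. Diet, age and count table cannot be told apart in this difference. For Cacng1, Hrc, Jsrp1 and Cacna1s its size is uncertain, since some groups had few counts a library.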

How the results depend on the processing

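RLE scaling, a mean count of at least 50 and dropping the robust step kept the side of the threshold and the direction of every value and left each number of genes called within 1.5 times, and a prior count of 0.5 did so for all 20 correlations. Calls are given for the 10 genes with those of all genes in parentheses. On chow edgeR called 2 (1303), upper-quartile scaling 1 (1107), DESeq2 4 (2977), voom with sample quality weights 1 (10843), no filter 0 (524), the muscle score as covariate 0 (81), the B lymphocyte score as covariate 4 (3768), all 24 libraries in 1 fit 4 (3615) and leaving out libraries with a muscle score above 4 gave 0 (25). On HFD 7 were called (1241), against 0 (0) with the muscle score, 0 (25) with the B lymphocyte score and 0 (0) without those libraries. The interaction, with 8 (2080), gave 5 (10372) with voom, 0 (1) with the muscle score and 1 (2948) without those libraries. Diet in WT-Tg, with 7 (9709), gave 4 (12605) with voom. Diet in D316A-Tg, with 9 (5975), gave 0 (4154) with the muscle score and 3 (4911) without those libraries. Leaving out each library in turn gave 0 to 3 calls on chow (140 to 3360) and 2 to 9 on HFD (326 to 3919). The interaction kept 8 calls (1368 to 4304). Diet had 8 to 10 calls in D316A-Tg (5291 to 6243) and 6 to 8 in WT-Tg (8835 to 10317).

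The direction of some log2 fold changes turned. With voom these were, on chow, Trdn (0.95), Jph1 (0.16) and Hrc (0.40), on HFD Jph1 (-0.17), in the interaction Jph1 (-0.33) and Asph (-0.57), and for diet in WT-Tg Trdn (2.27) and Srl (0.84). With the muscle score as covariate they were, on chow, Trdn (0.83) and Hrc (0.76), on HFD Trdn (-0.047), Jph1 (-1.06), Jph2 (-0.99), Stac3 (-1.90), Srl (-1.15), Hrc (-0.58) and Jsrp1 (-0.84), and in the interaction Trdn (-1.20), Jph1 (-1.07), Srl (-0.73), Hrc (-1.11) and Asph (-0.41). For diet they were Trdn (1.58), Srl (1.05), Hrc (0.16) and Jsrp1 (0.31) in WT-Tg and Cacng1 (-0.0088), Stac3 (-0.72) and Hrc (-0.96) in D316A-Tg. Without libraries with a muscle score above 4 they were, on chow, Trdn (0.67), Jph1 (0.18), Srl (0.31) and Hrc (1.17), on HFD Jph1 (-0.48), in the interaction Jph1 (-0.75), Srl (-0.17) and Asph (-0.71), and for diet Trdn (0.93), Jph2 (0.013), Srl (1.17) and Jsrp1 (0.42) in WT-Tg and Stac3 (-0.44) in D316A-Tg. The cause was not tested. Leaving out each library moved Jph1 on HFD between -0.19 and 0.33, Asph in the interaction between -0.14 and 0.26 and Srl for diet in WT-Tg between -0.83 and 0.43.

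With the number in the titles as a replicate block, the interaction was called for 6 of the 10, beside 2664 of all genes. Diet in WT-Tg was called for 6 (9520 of all genes), of which 2, Jph1 and Asph, were higher on HFD. Diet in D316A-Tg was called for 8 (5659 of all genes), and Srl for diet in WT-Tg turned to 0.15. Libraries of the same number on both diets had correlations of their deviations from -0.41 to 0.63, and 4 of 12 numbers matched best with themselves, so the samples share only a number. Depth limits Hrc, Jsrp1, Cacna1s and Cacng1 in WT-Tg HFD, whose medians there were 0.240, 0.255, 0.219 and 0.102 CPM, near or, for Cacng1, below the floor of 3 counts. In D316A-Tg chow it limits Jsrp1 and Cacng1, whose medians were 0.110 and 0.222 CPM.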
